A study of Mus musculus with 4 samples.

Results

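Axon guidance ligands and their receptors were compared between dermal papilla cells of Sox2 heterozygous (Het) and Sox2 conditional knockout (cKO) mice. The genes are the semaphorins of classes 3 to 7 with their neuropilin and plexin receptors, the slits with the Robo receptors, the netrins with Dcc and the Unc5 receptors, and the ephrins with the Eph receptors. They were chosen by symbol from probe sets that name 1 gene, which gave 70 of 19938 measured genes, on 76 probe sets: 36 ligand genes and 34 receptor genes. Unc50, whose symbol begins like an Unc5 gene but which belongs to another family, was not counted. Unc5cl and the netrin-G gene Ntng1 share the names of the netrin system and were kept. No probe set named Ephb2 or Ntng2 alone.

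The dermal papilla is a cluster of mesenchymal cells that signals to the growing hair from the follicle's base. Its cells were sorted from mouse skin at postnatal day 5 as positive for the Sox2GFP reporter and for integrin alpha 9. The 2 Het arrays came from mice heterozygous for Sox2 and the 2 cKO arrays from mice with a conditional knockout of Sox2, so both groups carried the reporter used in the sort and no wild-type group was compared. The labels name neither a Cre driver nor the animals or pools behind each array, and p-values measure only the spread between these samples. Values are log2 and relative to the median of the 4 arrays in each probe set, so they hold differences between arrays and no level; the papilla markers could therefore not be checked for presence, and fewer cells of a type cannot be told apart from less RNA per cell. The targeted gene, Sox2, had a log2 difference between the groups of -1.81 ± 0.06 (cKO minus Het, ± SE of the limma fit, n = 2 arrays per group), with both cKO arrays below both Het arrays. The medians of the arrays over all probe sets lay between -0.0037 and 0.0043.

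Guidance molecules steer growing axons by attraction or repulsion at a distance or on contact, and the same molecules direct cell migration, vessel growth and boundaries between tissues outside the nervous system. Class 3 semaphorins are secreted and signal through neuropilins paired with plexins, whereas the other vertebrate classes are bound to the membrane and mostly bind plexins directly. Slits are secreted repellents sensed by Robo receptors, netrins attract through Dcc and repel through Unc5 receptors, and ephrins stay on the cell surface, where they signal to Eph receptor kinases on the neighbouring cell. In skin such signals are known from the guidance of sensory nerve endings and blood vessels.

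Most of the 70 genes differed little between Het and cKO, and the larger differences were nearly all toward lower values in cKO. Of the 70 genes 43 (61.4%) had a lower mean in cKO, against 47.7% of all genes, and their median difference was -0.02 against 0.0034 over all genes. The 2 cKO arrays lay below both Het arrays in 17 genes (24.3%), where 15.6% of all genes did so, and above both in 6 (8.57%), where 17.8% did so. Separated groups with a difference of at least 0.3 were found for Unc5c, Slit2, Slit3, Nrp2, Sema5a and Robo2, each lower in cKO. These 6 genes are 8.57% of the 70, against 3.01% of all genes, and 0 of the 70 had separated groups and were higher by that much, against 0.938% of all genes. The differences of 46 genes (65.7%) were smaller than 0.1 in size, as were those of 73.4% of all genes.

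None of the 70 genes passed limma's test adjusted over all genes (smallest adjusted p = 0.897, Robo2), and 0 of 19938 genes did, a background of 0%. The smallest adjusted p of all genes was that of the targeted gene, Sox2 (adjusted p = 0.345, limma). As the test did not call Sox2 either, the lack of a call does not show that a gene was unchanged. An unadjusted p under 0.05 was reached by 4 of the 70 genes, namely Robo2, Sema5a, Unc5c and Nrp2. That is 5.71% of them against 5.28% of all genes, a share near the background. All 4 were lower in cKO. Genes both under that limit and lower in cKO made up 5.71% of the 70 and 3.41% of all genes. Over all genes, 680 of the 1053 under the limit were lower. The unmoderated statistic also called 0 genes, and 2 against 2 arrays allow no two-sided exact permutation p below 0.333.

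**Figure D1:**
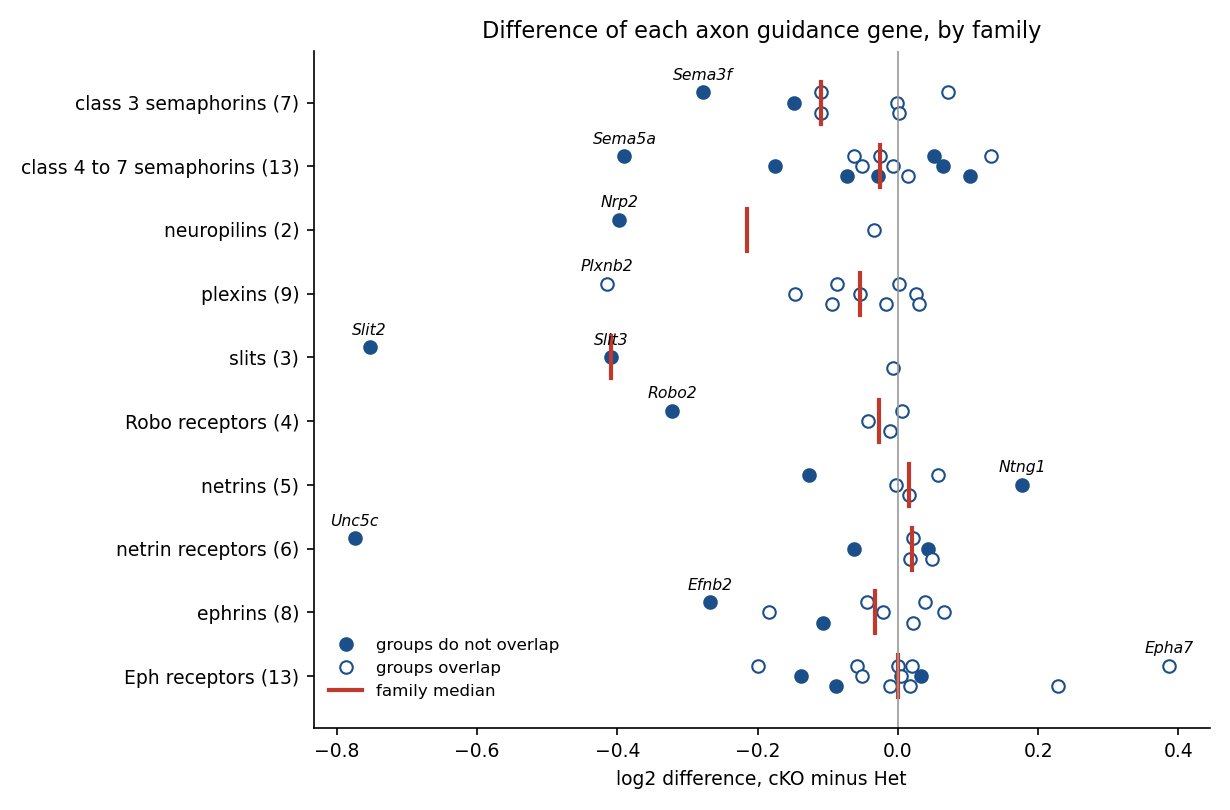
Each point is 1 gene, placed by its log2 difference (cKO minus Het, means of 2 arrays per group) on the x axis and by family on the y axis, with the number of genes in brackets; filled points have groups that do not overlap and red bars are family medians. Unc5c and Slit2 lie farthest to the left, at -0.77 and -0.75, and Epha7 farthest to the right, at 0.39.

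The larger differences were nearly all toward lower values in cKO, though none of the 70 genes passed the adjusted test. The 250 bases before the start sites of the 70 genes were searched for SOX-type motifs. Both strands were searched. The first motif was ACAATG. The second was AACAAT, which overlaps the first. The third was ACAAAG. RefSeq windows (GRCm38.p6) were found for 60 of the 70 genes. A match to any of the 3 motifs was present in 13 of 76 member windows (17.1%). It was present in 29.6% of 32851 windows of 27025 RefSeq genes, not only the measured ones. These windows differ from the member windows in CG content, given below, so the 2 shares are not a like comparison. Among the members lower in cKO with separated groups, 2 of 19 windows (10.5%) held a match, those of Efna4 and Sema6d, both with ACAAAG. Among the other members 11 of 57 windows (19.3%) did, a contrast that was not tested. These sets of members also differ in CG content, with median CG counts of 19 and 14 per window. The windows of 4 genes with a large difference and of Efna4 are shown, 5′ to 3′ on the gene's strand, to set windows without these letters beside a window that holds them; capitals mark matches.
Unc5c, chr3:141465314-141465563, plus strand: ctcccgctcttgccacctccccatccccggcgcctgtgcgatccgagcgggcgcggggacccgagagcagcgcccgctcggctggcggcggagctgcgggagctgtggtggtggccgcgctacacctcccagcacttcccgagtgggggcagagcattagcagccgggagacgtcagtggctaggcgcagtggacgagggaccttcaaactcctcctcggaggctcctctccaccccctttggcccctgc
Slit2, chr5:47982905-47983154, plus strand: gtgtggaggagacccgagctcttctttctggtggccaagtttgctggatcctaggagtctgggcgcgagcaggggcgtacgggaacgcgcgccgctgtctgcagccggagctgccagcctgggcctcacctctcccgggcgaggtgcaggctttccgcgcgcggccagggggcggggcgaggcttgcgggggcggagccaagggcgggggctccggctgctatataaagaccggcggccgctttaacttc
Slit3, chr11:35121206-35121455, plus strand: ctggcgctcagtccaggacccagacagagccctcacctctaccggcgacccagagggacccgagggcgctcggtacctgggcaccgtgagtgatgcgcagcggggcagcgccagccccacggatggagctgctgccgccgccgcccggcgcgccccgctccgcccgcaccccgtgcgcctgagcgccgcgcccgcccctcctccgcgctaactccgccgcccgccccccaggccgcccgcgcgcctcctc
Nrp2, chr1:62703067-62703316, plus strand: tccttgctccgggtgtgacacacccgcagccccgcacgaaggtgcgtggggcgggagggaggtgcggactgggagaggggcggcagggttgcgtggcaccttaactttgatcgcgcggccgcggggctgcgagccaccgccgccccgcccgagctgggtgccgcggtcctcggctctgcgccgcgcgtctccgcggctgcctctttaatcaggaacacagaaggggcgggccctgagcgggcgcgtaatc
Efna4, chr3:89338029-89338278, minus strand: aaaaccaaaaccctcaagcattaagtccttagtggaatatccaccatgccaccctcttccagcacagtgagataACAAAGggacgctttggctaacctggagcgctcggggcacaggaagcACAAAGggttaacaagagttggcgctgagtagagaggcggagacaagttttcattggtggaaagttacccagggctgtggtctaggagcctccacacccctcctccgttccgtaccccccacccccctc

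A match is a description of letters, and its absence says only that these letters are not in this window. The windows of Unc5c, Slit2, Slit3 and Nrp2 hold 23, 25, 35 and 32 CG dinucleotides and that of Efna4 holds 7, and the median is 15 in member windows and 6 in all windows. Efna4, an ephrin-A gene, differed by -0.11 ± 0.07.

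Among the slits, Slit2 and Slit3 were lower in both cKO arrays, and Slit1 was not. In Slit2, Het replicate 1 read 0.91 and replicate 2 read 0.10, while the cKO arrays read -0.10 and -0.40, in the same order of replicates, which is kept below. The groups did not overlap, but the Het arrays were further apart from each other than the group means were. The difference was -0.75 ± 0.33, or 1.69-fold lower in cKO (adjusted p = 0.954, limma). Without Het replicate 1 it was -0.35. Slit3 stood at 0.37 and 0.05 in Het and at -0.34 and -0.05 in cKO, again with Het replicate 1 highest, and here cKO replicate 1 lowest. Its difference was -0.41 ± 0.16, or 1.33-fold lower (adjusted p = 0.943, limma), and it was -0.25 without Het replicate 1 and -0.27 without cKO replicate 1. Slit1 differed by -0.0065 ± 0.05 with overlapping groups.

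The precursors of miR-218, a microRNA known for repressing Robo messages, lie within Slit2 and Slit3, at chr5:48223966-48223986 and chr11:35616840-35616860 for the mature form (RefSeq, GRCm38.p6, plus strand). Its sequence is shown because both host genes were lower; the seed, bases 2 to 8, is in capitals.
miR-218-5p: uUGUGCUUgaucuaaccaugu

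The array has 1 probe set for each precursor locus. Mir218-1, inside Slit2, stood at -0.07 and -0.08 in Het and at 0.07 and 0.20 in cKO. Its groups did not overlap, and its difference of 0.21 ± 0.06 (adjusted p = 0.936, limma) had the opposite sign to that of its host. Mir218-2, inside Slit3, differed by 0.03 ± 0.04 with overlapping groups. Whether these probe sets read precursor, mature or host RNA was not tested. Both loci were picked for their hosts, outside the 70 genes.

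Of the slit receptors, Robo2 alone had separated groups. It stood at 0.18 and 0.13 in Het and at -0.20 and -0.13 in cKO. The arrays within a group were close together, and the difference of -0.32 ± 0.05, or 1.25-fold lower in cKO, had the smallest p of the 70 genes (unadjusted p = 0.00382, adjusted p = 0.897, limma). It lay between -0.36 and -0.29 with any 1 array left out. Robo1, the other receptor widely found outside the nervous system, differed by -0.04 ± 0.12, Robo3, a receptor of commissural axons, by 0.0061 ± 0.05 and Robo4, an endothelial receptor, by -0.01 ± 0.04, each with overlapping groups.

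In the netrin system 1 receptor gene stood out by size. Unc5c, a receptor for repulsion by netrin, had the largest difference of the 70 genes. It stood at 0.55 and 0.22 in Het and at -0.22 and -0.56 in cKO. The groups were separated by more than either gap between replicates. The difference was -0.77 ± 0.18, or 1.71-fold lower in cKO (adjusted p = 0.934, limma), and lay between -0.94 and -0.60 with any 1 array left out. The other Unc5 genes differed by between -0.06 (Unc5b, a receptor also found on vessels, with separated groups) and 0.05 (Unc5a). Among them Unc5cl, at 0.04 ± 0.04, also had separated groups, with cKO higher. Dcc, the receptor for attraction, read 0.24 and -0.28 in Het and was within 0.01 of 0 in both cKO arrays, a difference of 0.02 ± 0.20. Dcc thus varied between the Het arrays far more than between the groups.

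Netrin ligand genes showed small differences. Ntn1, the classical secreted netrin, stood at 0.11 and 0.02 in Het and at -0.10 and -0.02 in cKO. The groups were separated by a narrow margin, with a difference of -0.13 ± 0.06. Ntn3, Ntn4 and Ntn5 lay between -0.0020 and 0.06 with overlapping groups. Ntng1, a membrane-anchored netrin-G that does not bind Dcc, was at -0.03 and -0.11 in Het and at 0.03 and 0.19 in cKO, a difference of 0.18 ± 0.07 (adjusted p = 0.948, limma), or 0.10 without cKO replicate 2. Its probe sets disagreed, with differences of 0.35 and 0.01.

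**Figure D2:**
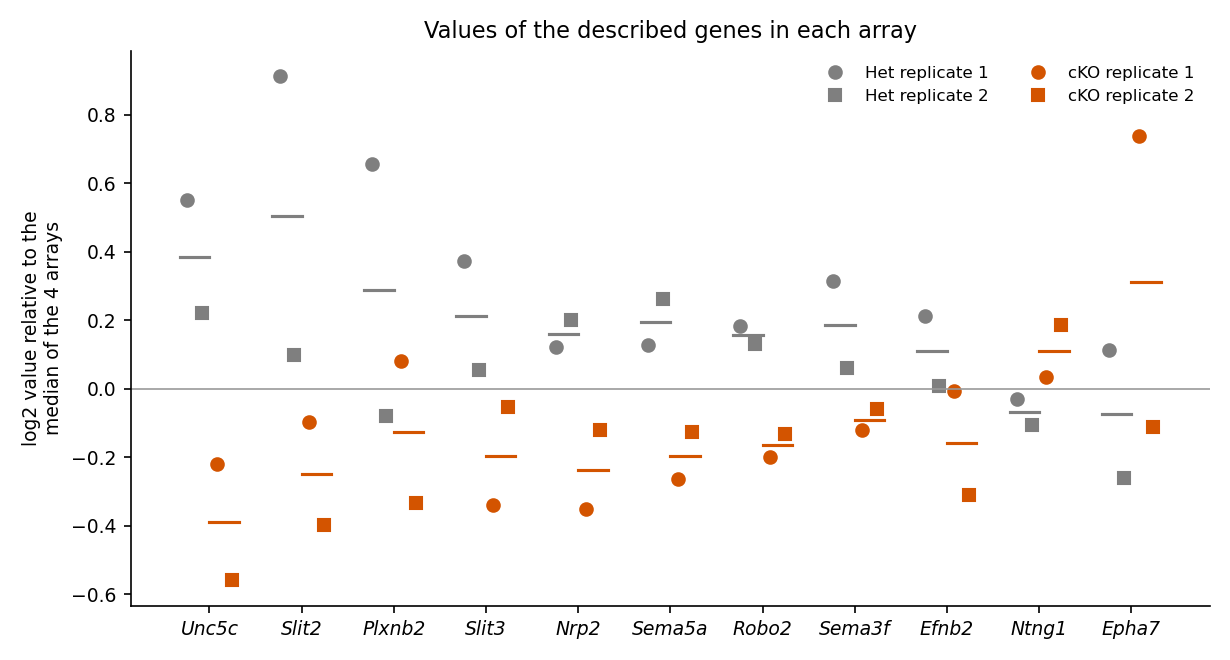
Log2 values relative to the median of the 4 arrays (y axis) are plotted for the 11 genes described with all values (x axis), with circles for replicate 1, squares for replicate 2 and short lines for group means. Both cKO arrays lie below both Het arrays in Unc5c, Slit2, Slit3, Nrp2, Sema5a, Robo2, Sema3f and Efnb2; Plxnb2 and Epha7 are spread most by Het replicate 1, at 0.66, and cKO replicate 1, at 0.74.

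Class 3 semaphorin genes leaned lower in cKO, with 5 of 7 lower and a median of -0.11, the lowest median of the 5 ligand families after the slits. Sema3f, a repellent that binds Nrp2 with high affinity, stood at 0.31 and 0.06 in Het and at -0.12 and -0.06 in cKO. Het replicate 1 was well above the other arrays. The difference was -0.28 ± 0.10, or 1.21-fold lower (adjusted p = 0.941, limma), and -0.15 without Het replicate 1. Sema3c, known from the guidance of neural crest and endothelial cells, differed by -0.15 ± 0.06 with separated groups. Sema3d and Sema3e, the latter a ligand of Plxnd1, each differed by -0.11 with overlapping groups. Sema3a, the founding repellent of the class, differed by 0.07 ± 0.06, and Sema3b and Sema3g by less than 0.01 in size. With 1 array left out the family median was smaller in size each time, between -0.08 and -0.01.

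The neuropilins, the ligand-binding receptors of these semaphorins, were unlike each other. Nrp2 stood at 0.12 and 0.20 in Het and at -0.35 and -0.12 in cKO. Both cKO arrays were lower, replicate 1 the more so. The difference was -0.40 ± 0.10, or 1.32-fold lower (adjusted p = 0.934, limma), and ran from -0.51 to -0.28 with 1 array left out. Nrp1, which binds Sema3a and VEGF, stood at -0.01 and 0.04 in Het and at -0.04 and 0.01 in cKO, a difference of -0.03 ± 0.04 with overlapping groups. The difference between the 2 neuropilins was not tested.

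The membrane-bound and other semaphorins of classes 4 to 7 were divided, with 8 of 13 genes lower and a median of -0.03. Sema5a, a transmembrane semaphorin with thrombospondin repeats, stood at 0.13 and 0.26 in Het and at -0.26 and -0.13 in cKO. The groups were well apart compared with the gaps between replicates. The difference was -0.39 ± 0.08, or 1.31-fold lower (adjusted p = 0.919, limma), and -0.32 at its smallest with 1 array left out. Its relative Sema5b differed by -0.03 ± 0.04, also with separated groups. Sema4c, a ligand of plexin B receptors, differed by -0.18 ± 0.10 with separated groups, cKO replicate 2 being lowest at -0.26. Sema6d differed by -0.07 ± 0.04, also with separated groups. Sema4b at 0.10, Sema7a at 0.06 and Sema4f at 0.05 had separated groups in the other direction. The remaining 6 genes, Sema4a, Sema4d, Sema4g, Sema6a, Sema6b and Sema6c, had overlapping groups and differences between -0.06 (Sema6a) and 0.13 (Sema6b).

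Plexin genes gave no separated groups in any of 9 cases, where 15.6% of all genes were separated toward lower and 17.8% toward higher values. Plxnb2, a receptor for class 4 semaphorins, had the largest difference of the family but also one of the widest gaps between replicates. It stood at 0.66 and -0.08 in Het and at 0.08 and -0.33 in cKO. The groups overlapped, and the difference of -0.41 ± 0.32 became -0.05 without Het replicate 1. Plxnc1, the receptor of Sema7a, differed by -0.15 ± 0.12. The 7 others, Plxna1 to Plxna4, Plxnb1, Plxnb3 and the endothelial receptor Plxnd1, lay between -0.09 and 0.03. Het replicate 1 had the highest value in 6 of the 9 plexin genes, and the family median of -0.05 became 0.02 without cKO replicate 2, -0.0030 without Het replicate 1 and -0.19 without Het replicate 2.

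The median difference was -0.18 over the 3 ephrin-B genes and 0.02 over the 5 ephrin-A genes, a contrast that was not tested. Both medians depended on single arrays: the ephrin-B median was 0.0060 without Het replicate 1, -0.04 without cKO replicate 2, -0.33 without cKO replicate 1 and -0.37 without Het replicate 2. For ephrin-A it was between -0.06 and 0.02, and below 0 without any array other than Het replicate 1. Efnb2, the ephrin of arterial vessels and a contact signal for EphB receptors, stood at 0.21 and 0.0074 in Het and at -0.0074 and -0.31 in cKO. The inner arrays of the groups nearly touched. The difference was -0.27 ± 0.14, or 1.20-fold lower (adjusted p = 0.968, limma), and -0.12 without cKO replicate 2. Efnb1, an X-linked ephrin, read 0.45 and -0.12 in the Het arrays, with a difference of -0.18 ± 0.24. Efnb3 differed by -0.04 ± 0.11. Of the ephrin-A genes Efna4 had separated groups, and Efna1, Efna2, Efna3 and Efna5 lay between -0.02 and 0.07 with overlapping groups.

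Eph receptors, the largest receptor family with 13 genes, centred on no difference, with 7 genes lower, 6 higher and a median within 0.01 of 0. Epha7 had the largest difference toward higher values of the 70 genes, and it rested on 1 array. It stood at 0.11 and -0.26 in Het and at 0.74 and -0.11 in cKO. The groups overlapped, and the difference of 0.39 ± 0.35 (adjusted p = 0.986, limma) turned to -0.04 without cKO replicate 1. Epha3, a related receptor, showed the same array on top, at 0.36 in cKO replicate 1 and between -0.14 and 0.02 in the other arrays, with a difference of 0.23 ± 0.16. Ephb4, the venous partner of Efnb2, differed by -0.20 ± 0.18 with overlapping groups. Ephb6, a receptor without kinase activity, and Epha2, a receptor of epithelia, had separated groups at -0.14 ± 0.05 and -0.09 ± 0.05. Epha6 had separated groups at 0.03 ± 0.04. The other 7 receptors, Epha1, Epha4, Epha5, Epha8, Epha10, Ephb1 and Ephb3, had overlapping groups and differences between -0.06 and 0.02.

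The spread between replicates was wider than the group difference in most of these genes. The larger of the replicate gaps, within Het or within cKO, exceeded the group difference in 56 of the 70 genes (80.0%), and it did so in 78.3% of all genes. It did not for Unc5c, Robo2, Sema5a, Nrp2, Slit3, Sema3f, Sema3c, Sema4f, Sema6d, Sema7a, Ntn1, Ntng1, Epha2 and Ephb6. Het replicate 1 held the highest of the 4 values in 25 of the 70 genes (35.7%), against 25.4% of all genes. The SD over the 70 genes of the difference between arrays was 0.22 within Het and 0.18 within cKO. Between the groups, cKO replicate 2 gave an SD of 0.17 against Het replicate 2 and of 0.28 against Het replicate 1. By this measure, over the 70 genes, Het replicate 2 was no further from cKO replicate 2 than from Het replicate 1. Over all genes the order was reversed, with an SD of 0.184 against cKO replicate 2 and of 0.174 against Het replicate 1.

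**Figure D3:**
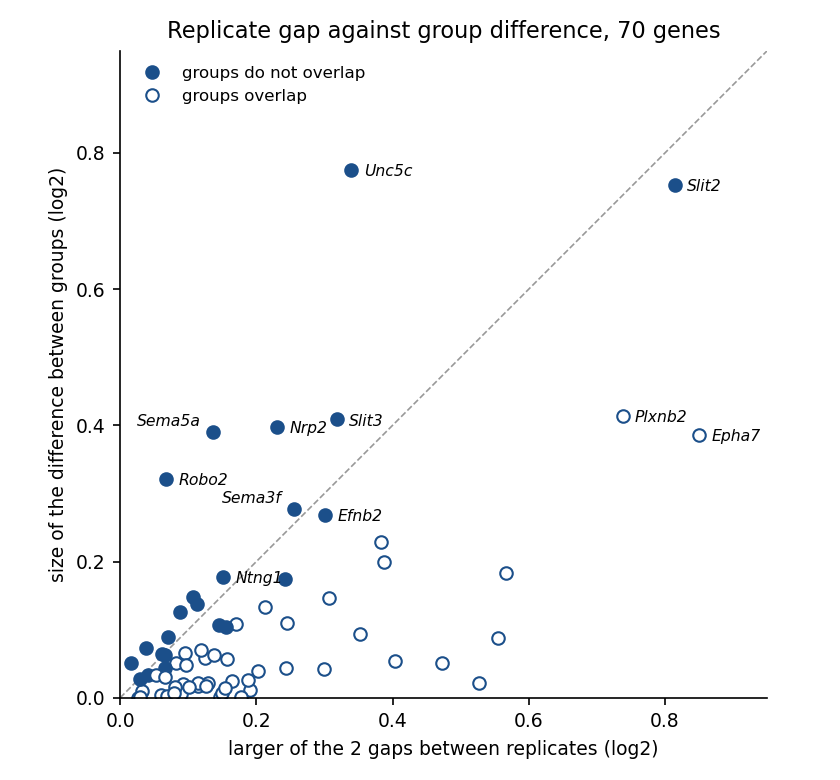
Each of the 70 genes is placed by the larger of its gaps between replicates (x axis, log2) and the size of its group difference (y axis, log2); filled points have groups that do not overlap and the dashed line marks equality. Unc5c, Robo2, Sema5a, Nrp2 and Slit3 stand above the line, while Slit2, Plxnb2 and Epha7 stand below it.

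**Figure D4:**
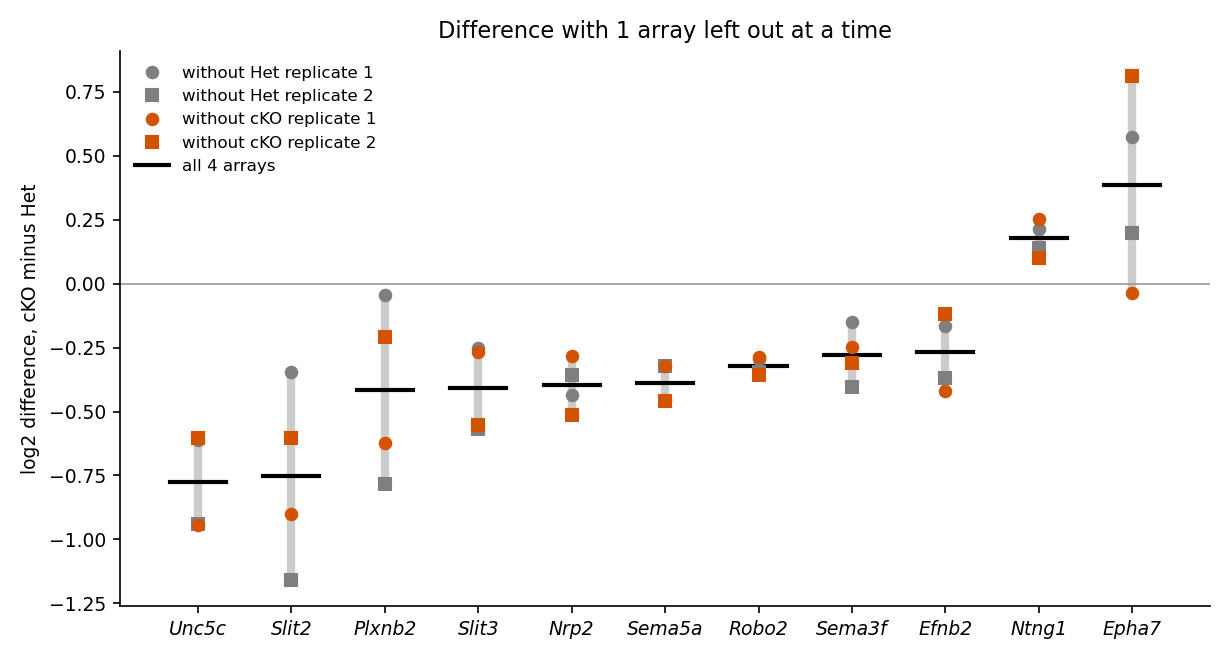
Log2 differences, cKO minus Het (y axis), of the 11 described genes (x axis) are shown with all 4 arrays as black bars and with each array left out as points, grey for Het arrays and orange for cKO arrays. Robo2 and Sema5a move least, whereas Slit2 runs from -1.16 to -0.35 and Epha7 from -0.04 to 0.81.

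Co-receptors and intracellular partners of these receptors, a list of 67 genes of which 63 were measured, had a median difference of -0.02. A lower mean in cKO was found in 37 (58.7%), against 47.7% of all genes. Of the 63 genes 0 passed limma's test adjusted over all genes, and 5 (7.94%) had an unadjusted p under 0.05, against 5.28% of all genes. Groups were separated toward lower values in 10 (15.9%, against 15.6% of all genes) and toward higher values in 5 (7.94%, against 17.8%). The share separated toward lower values was thus near the background. Draxin, a secreted repellent that binds Dcc and netrin, had the largest difference. It stood at 0.17 and 0.62 in Het and at -0.26 and -0.17 in cKO, a difference of -0.61 ± 0.18 (adjusted p = 0.936, limma). Trim9, a ubiquitin ligase that binds Dcc, differed by -0.37 ± 0.15, the actin-severing protein gene Cfl1 by -0.31 ± 0.09, and Chl1, an adhesion molecule that associates with neuropilins, by -0.30 ± 0.14, each with separated groups. With 1 array left out, Draxin shrank to -0.39 (without Het replicate 2), Trim9 to -0.17 (without Het replicate 1) and Chl1 to -0.13 (without cKO replicate 2).

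Markers of the papilla and of other cells that a skin sort could hold were read beside these values, over all measured genes of each list. Of all genes 47.7% were lower in cKO. Dermal papilla markers, a list that includes Sox2, were lower in 10 of 21, with a median of 0.08 and a range from -2.15 to 1.08. Dermal fibroblast markers were lower for 8 of 10 genes, their median difference being -0.26 and array medians of 0.04 and 0.11 in Het and 0.0058 and -0.09 in cKO. Schwann and glial markers were lower in 7 of 11, with a median of -0.11 and a range from -1.35 to 0.09. That median became 0.0052 without Het replicate 1 and 0.0043 without cKO replicate 2. It was -0.09 without Het replicate 2 and -0.17 without cKO replicate 1. Endothelial markers were lower in 7 of 12, with a median of -0.02, and neuronal markers in 4 of 11, with a median of 0.0050. Smooth muscle and dermal sheath markers were lower in 7 of 10 (median -0.06) and melanocyte markers in 6 of 11 (median -0.04). Merkel cell markers were lower in 5 of 10 (median 0.0053) and immune markers in 4 of 11 (median 0.0082). Keratinocyte markers were lower in 11 of 12 (91.7%), with a median of -0.08, which became 0.06 without Het replicate 2. Groups were separated in 1 of these 12 genes. Keratinocyte markers had array medians of -0.09 and 0.38 in Het and -0.03 and 0.02 in cKO, highest in Het replicate 2. Of the 11 genes described with all values by rule, Sema5a and Nrp2 were likewise higher in Het replicate 2 than in Het replicate 1, and the 9 others were lower there. The part of these cells in the differences of the guidance genes was not tested.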

How the data were processed

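Expression was measured on Affymetrix arrays in 4 samples. The deposited values are RMA values on what was taken to be the log2 scale, made by the authors, per the submitters' processing notes; base, software version and genome build are not stated there. The median over the 4 arrays was 0, within 1e-06, in all 28853 probe sets of the table, so no level, detection or background is left. By the platform annotation 21789 probe sets named 1 gene, 1621 several and 5443 none. Each gene was given the mean of its probe sets. No filter on dim probe sets could be made.

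All 19938 genes were fitted in R 4.3.3 with limma 3.58.1 (group as the only term, two-sided, Benjamini-Hochberg over all genes, threshold 0.05); standard errors are those of this fit. The fit was tested on simulated data. Genes with separated groups and a difference of at least 0.3, and the largest difference of each family, are given with all values; this took 11 genes. Of the co-receptors and partners, the 4 largest differences with separated groups are named. Families, lists and markers are described by counts and medians. The genes and lists were chosen with earlier results of these data known. Promoter and microRNA sequences came from RefSeq (GRCm38.p6). Alternatives were another centring, a robust prior, the replicate block, an unmoderated statistic, other ways to join probe sets, a filter on SD, each array left out, and the netrin-G gene and Unc5cl left out. Precision is limited by the 2 arrays per group.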

Additional observations from a re-analysis of the deposited data

How the results depend on the processing

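With only the 9969 genes of larger SD over the 4 arrays, which the group difference itself enters, limma called 116 genes, 94 of them lower in cKO, and the prior degrees of freedom went from 1.52 to 66.5. Of the 41 guidance genes left, 2 were called (4.88% against 1.16% of the genes tested), beside 1 signalling partner. The 2 guidance genes were Unc5c at -0.77 (adjusted p = 0.00322, limma) and Slit2 at -0.75 (adjusted p = 0.00987, limma). As the filter keeps genes partly by the difference under test, these adjusted p-values and calls give no support for a difference. Of the 41 genes 28 were lower, 15 had separated groups and their median was -0.0874. The same counts over all filtered genes were not made. Family medians under this filter were -0.3764 for netrin receptors, -0.0313 for Eph receptors, -0.3973 for neuropilins, 0.0576 for netrins, -0.1818 for Robo receptors and -0.5811 for slits. They cover only the genes that the filter left in each family, so they do not describe whole families. The neuropilin value is that of Nrp2 alone, and the median over all netrin receptors was 0.0197 without the filter. With arrays centred on their medians, the Eph median was -0.0023. Every other setting called 0 genes, adjusted over all genes. With the replicate block, 0 genes and 0 guidance genes were called, 43 guidance genes remaining lower, as the block leaves the differences as they are. The labels do not say what a replicate number marks. The gaps between replicates in Het and in cKO correlated at 0.30 across all genes and at 0.44 across the guidance genes. Genes are not independent replicates.

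With 1 array left out, between 41 and 44 of the 70 genes were lower, and the median ran from -0.027 to -0.0142. Separated groups ran from 44 to 48, since 1 against 2 arrays separate more easily. These counts were not made over all genes, so they cannot be read as particular to the 70. Family medians ran from -0.0223 to 0.0499 for netrin receptors, -0.1013 to 0.0122 for ephrins, -0.0252 to 0.0302 for Eph receptors, -0.022 to 0.0388 for netrins, -0.1876 to 0.0203 for plexins and -0.0957 to 0.0006 for Robo receptors, all changing sign. They ran from -0.0752 to -0.0116 for class 3 semaphorins, -0.0333 to -0.0105 for classes 4 to 7, -0.5681 to -0.2498 for slits and -0.2859 to -0.1449 for neuropilins. Epha7 ran from -0.0385 without cKO replicate 1, a reversal, to 0.8117 without cKO replicate 2; the 10 other described genes kept their sign in every setting that included them.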
